A study of Homo sapiens with 18 samples.

Results

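Keratins form the intermediate filaments of epithelial cells, and 10 keratin genes were followed by name in cultured human keratinocytes given interferon. They were KRT5, KRT14 and KRT15, the keratins of the basal layer, KRT6A, KRT6B, KRT16 and KRT17, the keratins of activated epidermis, and KRT1, KRT10 and KRT13, keratins of suprabasal layers. All 10 names were found among the 16472 genes of the deposited table, and all 10 passed the filter on low values. The table holds 24 keratin genes in all. The cells were NIKS, an immortalized but otherwise normal line of human keratinocytes, cultured on irradiated mouse fibroblasts. The libraries compare SP100 wild type (WT) with Sp100 knockout (KO) cells, either untreated (0 h) or treated with 25 ng/mL of interferon alpha 2a and harvested after 12 h or 48 h, with 3 biological replicates in each of the 6 groups. Each genotype came from 1 line, so the genotype cannot be told apart from other differences between these 2 lines. No library of untreated cells at 12 or 48 h was analysed here, so hours in interferon cannot be told apart from hours in culture.

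Keratin filaments are built from heterodimers of a type II and a type I keratin. The genes of each type lie side by side in a cluster, type II on chromosome 12 and type I on chromosome 17. KRT18, a type I keratin, is the exception and lies on chromosome 12. In epidermis, basal cells make KRT5 with KRT14, and cells that leave the basal layer switch to KRT1 with KRT10. Wounding and inflammation induce the KRT6 genes with KRT16 and KRT17 in cells above the basal layer, while KRT15 marks basal cells and hair follicle stem cells, and KRT13 is a suprabasal keratin of mucosal epithelia.

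The results turn first on KRT6A and KRT6B, whose coding sequences are nearly the same, while the untranslated parts of their messages were not compared. Their coding sequences, of 1692 bases each, differ at 42 positions and are 97.5% identical, with identical runs of up to 269 bases, and KRT6C, the third copy, is 97.9% identical to KRT6A and 98.5% identical to KRT6B. The stretch of exon 2 printed here is one where KRT6A and KRT6B differ at 9 positions, as many as in any 60 bases within an exon. It shows bases by which reads of these 2 copies can be told apart (GENCODE 29 on GRCh38, coding strand, which is the minus strand, coding positions 663 to 722 counted from the first base of the start codon). KRT6A lies at chr12:52491555-52491614, KRT6B at chr12:52450439-52450498 and KRT6C at chr12:52472099-52472158. Capitals mark the positions at which the 3 copies are not the same.
KRT6A: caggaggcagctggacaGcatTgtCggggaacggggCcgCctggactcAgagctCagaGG
KRT6B: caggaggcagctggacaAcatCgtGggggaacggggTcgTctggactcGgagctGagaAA
KRT6C: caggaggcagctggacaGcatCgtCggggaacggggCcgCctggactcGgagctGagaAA
Of the 75-base stretches in the coding sequence, 64.9% in KRT6A, 53.8% in KRT6B and 42.7% in KRT6C occurred in no other gene's transcript. The same share was 89.2% for KRT14, 88.7% for KRT16, 96.3% for KRT17 and 96.5% for KRT5, and 100% for KRT15, KRT1, KRT10 and KRT13. How the submitters assigned reads that match several copies is not given in the sources used here, so the split between KRT6A, KRT6B and KRT6C is uncertain, and less so the split between KRT14, KRT16 and their pseudogenes.

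Values are RPKM, reads per kilobase of gene length scaled to the depth of each library. SP100, the targeted gene, was examined first: its level was 30.1, 31.9 and 27.9 RPKM in untreated WT and 16.0, 14.2 and 15.2 RPKM in untreated KO, and in KO it was lower at all 3 times, without overlap, by 0.94, 0.83 and 1.08 on the log2 scale (limma, adjusted p = 4.92e-08, 3.61e-07 and 1.47e-08). The labels do not say which part of the gene was altered, so the RNA level checks the labels only in part. Library depth, recovered in relative terms from the lowest values, ranged 1.5-fold, and replicates correlated at r = 0.985 to 0.989 across genes. The 7 keratinocyte markers examined were all measured. Of 10 fibroblast markers 4 were measured, with a summed level of 6.21 to 9.48 RPKM over the 18 libraries. Of 5 melanocyte markers only PMEL was measured, at 0.37 to 1.57 RPKM, and neither Langerhans cell nor Merkel cell markers were among the rows analysed. Of 4 markers of simple epithelium KRT7, KRT8 and KRT18 were measured, with a summed level of 444 to 644 RPKM, nearly all of it KRT8 and KRT18. The sum was higher at 12 h than at 0 or 48 h in each genotype, without overlap, and its part in the keratin changes below was not tested.

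Before interferon the cells expressed a basal keratin programme together with much KRT6A. Among all genes of the table, KRT5 ranked 2, KRT14 ranked 5 and KRT6A ranked 15 by mean level in untreated WT. In untreated WT the order ran from KRT5 (7849 ± 78.8 RPKM, mean ± SD, n = 3) through KRT14 (6671 ± 245), KRT6A (4016 ± 139.7), KRT17 (1363 ± 99.0) and KRT15 (659 ± 94.2) to KRT16 (101 ± 1.79), KRT6B (58.1 ± 1.82), KRT13 (50.3 ± 4.54), KRT10 (11.4 ± 1.29) and KRT1 (1.48 ± 0.528). No neighbours in this order overlapped between libraries, and untreated KO cells had the same order, also without overlap. At 12 h KRT5 and KRT6A overlapped, as did KRT15 and KRT6B, in both genotypes, and in KO cells KRT6A and KRT14 overlapped too. KRT1 and KRT10, the major keratins of the suprabasal epidermis, were thus the lowest of the 10 in these cells, and levels compared here are per length of gene.

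**Figure D1:**
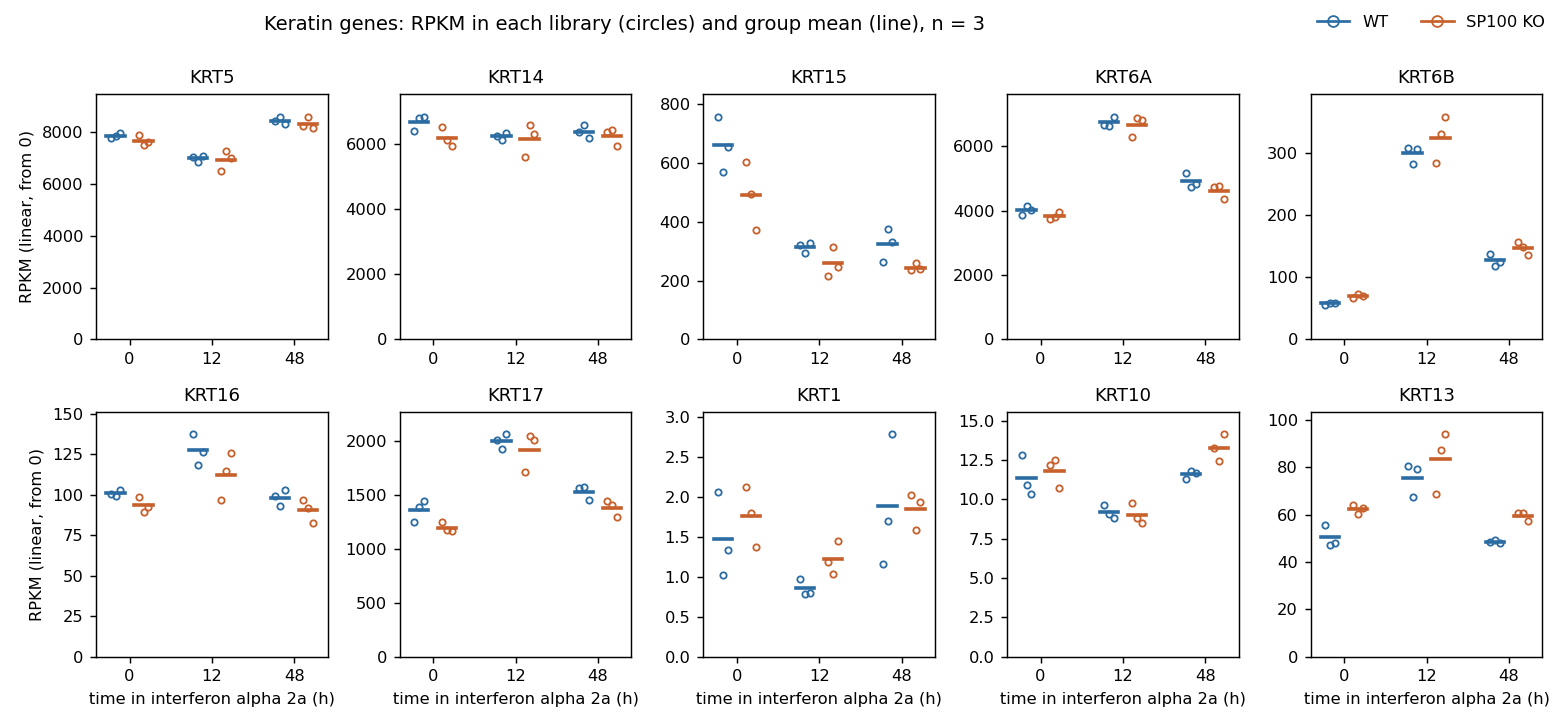
RPKM of each keratin gene (linear axis from 0) at 0, 12 and 48 h in WT (blue) and SP100 KO (orange) cells, with a circle for each library and a line at the mean of 3. KRT6B was between 56.1 and 72.6 RPKM in the untreated libraries and between 283.6 and 359.4 RPKM at 12 h, while KRT15 was lower at both times in interferon and KRT14 stayed between 5587 and 6840 RPKM throughout.

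At 12 h the activated keratins were higher and KRT15 was lower, in WT and KO cells alike. Of the 10 genes, 5 rose and 3 fell in WT, where 44.9% of all genes tested changed (15.1% higher, 29.8% lower), and again 5 rose and 3 fell in KO, where 48.8% changed (16% higher, 32.8% lower). Changes are differences in log2(RPKM + 1), tested with limma over 13280 genes and called at a Benjamini-Hochberg adjusted p below 0.05. The median change of the 10 genes was 0.12 in each genotype, and that of all genes tested was -0.085 in WT and -0.095 in KO. In bulk RNA, fewer cells of a type and less RNA per cell cannot be told apart.

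The activated keratins all rose at 12 h, 4 of 4 in each genotype, with a limit on KRT16 given below. KRT6B, a type II keratin induced in wounds, rose most. It was at 56.1, 58.9 and 59.5 RPKM in untreated WT, 309, 284 and 307 at 12 h and 138, 119 and 126 at 48 h. In KO it was at 66.3, 72.6 and 70.3, then 285, 331 and 359, then 158, 149 and 137 RPKM. Every library at 12 h lay above every library at 48 h, and those in turn above every untreated library. The mean was 5.16-fold higher at 12 h in WT (log2 change 2.35, SE 0.0763, adjusted p = 3.29e-13) and 4.66-fold in KO (2.20, SE 0.0763, adjusted p = 8.27e-13).

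KRT6A, its far more abundant copy, showed a smaller ratio and a larger gain in RPKM. Its level was 3872, 4151 and 4025 RPKM in untreated WT, 6681, 6645 and 6929.5 at 12 h and 5179, 4749 and 4820.0 at 48 h. In KO cells the values were 3759, 3801 and 3957, then 6297, 6891 and 6808, then 4738, 4785 and 4353 RPKM. The 3 times did not overlap in either genotype. The log2 change at 12 h was 0.75 in WT and 0.79 in KO (SE 0.0459 for each, adjusted p = 2.59e-09 and 1.15e-09). The share of KRT6B in the summed RPKM of KRT6A, KRT6B and KRT6C was 1.43% ± 0.0292 untreated and 4.25% ± 0.166 at 12 h in WT, and 1.78% ± 0.0777 and 4.63% ± 0.344 in KO (SD, n = 3). A read of KRT6A counted for KRT6B would enter this share, and the part of such reads in it was not tested.

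KRT17, a type I keratin of wound edges and hair follicles, was at 1253, 1389.7 and 1446 RPKM in untreated WT and 2012, 1932 and 2068 at 12 h. In KO it was at 1249.6, 1172 and 1170.0 and 1712, 2047 and 2011 RPKM. Each treated library exceeded each untreated library, with log2 changes of 0.56 in WT and 0.68 in KO (SE 0.0663, adjusted p = 6.35e-06 and 6.21e-07). KRT16, the type I partner of the KRT6 proteins, changed least of the group: 100.2, 99.4 and 103 RPKM became 138, 118 and 126 in WT, and 98.9, 89.6 and 92.6 became 96.8, 115 and 126 in KO. The WT groups did not overlap, while the lowest treated KO library lay inside the untreated range. KRT16 rose by 0.33 in WT (SE 0.0819, adjusted p = 0.00371) and by 0.25 in KO (adjusted p = 0.0183). The KO call was lost in a fit on these libraries alone (adjusted p = 0.0641), and without untreated replicate 2 (0.0661), treated replicate 2 (0.0565) or treated replicate 3 (0.107). KRT16P6, a pseudogene of KRT16 singled out after its values were seen, fell at 12 h while KRT16 rose, by 0.69 in WT and 0.72 in KO (adjusted p = 0.0189 and 0.0137), not called without WT 12 h replicate 2 (adjusted p = 0.113) or, in KO, without untreated or 12 h replicate 3 (up to 0.077). Summed, KRT16 and KRT16P6 did not rise at 12 h. In WT the sum was 216 ± 2.41 RPKM untreated and 201 ± 28.9 at 12 h (SD, n = 3). In KO it was 205 ± 23.1 and 180 ± 16.8, and the groups overlapped in each genotype. The longest run of bases that KRT16P6 shares with KRT16 is 57. KRT16P6 does share 75-base stretches with the coding sequence of KRT14, which was far more abundant than KRT16. The sum with KRT16 thus leaves out the listed gene that shares the longer stretches. The part of read assignment between KRT16P6, KRT16 and KRT14 was not tested.

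By 48 h the activated keratins had come down but not all of them to the untreated level. Against 12 h, 3 of the 10 genes were higher and 5 lower in WT, where 35.9% of all genes changed (24.6% higher, 11.3% lower), and 2 were higher and 5 lower in KO, where 41.7% changed (27.7% higher, 14% lower). The 4 activated keratins were all among those that fell, in each genotype: KRT6B by 1.23 in WT and 1.13 in KO, KRT6A by 0.46 and 0.53, KRT17 by 0.39 and 0.47, and KRT16 by 0.37 and 0.30. The KRT16 call in KO was lost in a fit on these libraries alone (adjusted p = 0.0533).

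When 48 h was set against untreated cells, 2 of the 10 genes rose and 1 fell in WT, where 12.8% of all genes changed (6.52% higher, 6.3% lower). In KO 4 rose and 1 fell, where 13.3% changed (5.9% higher, 7.42% lower). KRT6B remained 2.19-fold above the untreated mean in WT and 2.12-fold in KO (log2 change 1.12 and 1.07, adjusted p = 1.79e-08 and 3.24e-08). KRT6A remained 1.22-fold and 1.21-fold above it (0.29 and 0.27, adjusted p = 0.000376 and 0.000809). KRT17 was at 1563, 1576 and 1457 RPKM in WT and 1445, 1409 and 1301 in KO at 48 h, above every untreated library of the same genotype. Its difference was 0.17 in WT (adjusted p = 0.106) and 0.21 in KO (adjusted p = 0.0480), and the KO call was lost in 17 of the 25 alternative settings. KRT16 at 48 h overlapped its untreated values, at 99.2, 92.8 and 103 RPKM in WT and 96.9, 91.9 and 82.6 in KO.

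**Figure D2:**
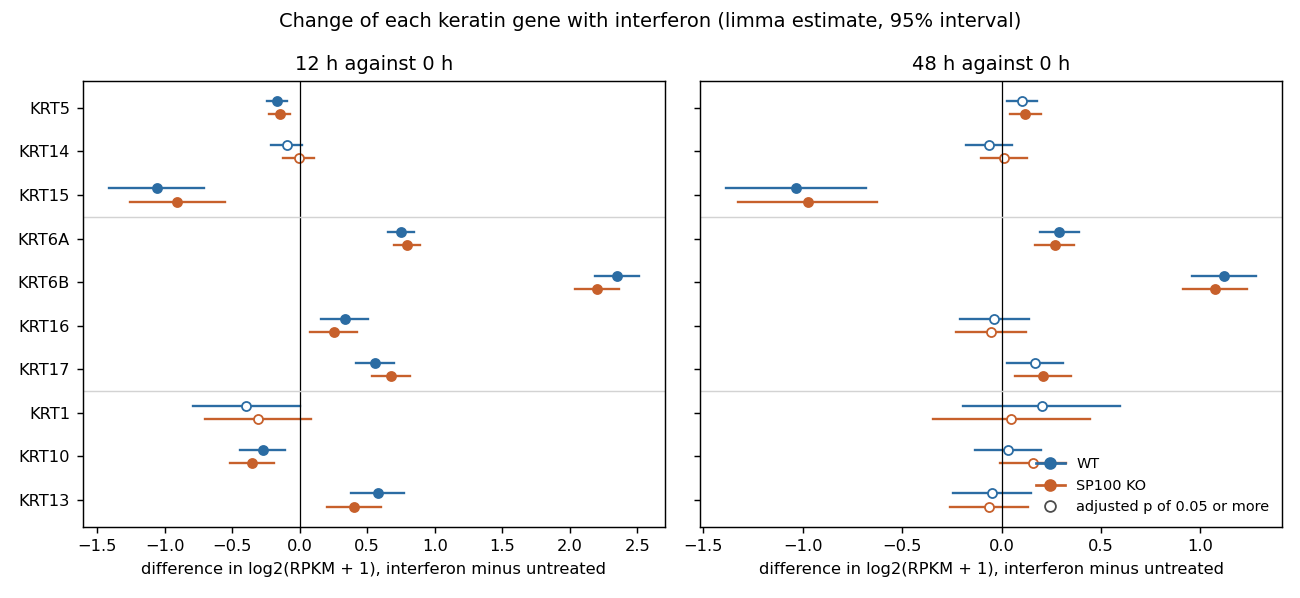
Difference in log2(RPKM + 1) from untreated cells at 12 h (left) and 48 h (right) for each keratin gene in WT (blue) and SP100 KO (orange), with the limma 95% interval; filled circles passed an adjusted p of 0.05, and the horizontal lines part the basal, activated and suprabasal genes. KRT6B stands at 2.35 and 2.20 at 12 h and near 1.1 at 48 h, and KRT15 near -1 at both times.

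Among the basal keratins KRT15 fell while KRT5 and KRT14 moved little. KRT15 was at 757, 569 and 653 RPKM in untreated WT, 322, 292 and 328 at 12 h and 263, 376 and 330.2 at 48 h. In KO it was at 602, 493 and 373, then 217, 312 and 246, then 235, 259 and 238 RPKM. No treated library reached the lowest untreated library of its genotype, and the untreated libraries were themselves widely spread, most in KO. In WT the log2 change of KRT15 was -1.06 at 12 h, against -1.03 at 48 h, whereas KO gave -0.91 and then -0.97 (SE 0.165 for each, adjusted p = 8.81e-05, 0.000438, 0.000295 and 0.000736). Unlike the activated keratins, KRT15 was not called between 12 and 48 h in either genotype.

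KRT5, the basal type II keratin, was at 7777, 7838 and 7933 RPKM in untreated WT, 7029, 6838 and 7080.2 at 12 h and 8400.2, 8585 and 8300.2 at 48 h. The KO values were 7856, 7505 and 7591, then 6494, 7256 and 6984, then 8234, 8572 and 8135 RPKM. The 12 h libraries were the lowest and the 48 h libraries the highest, without overlap in either genotype. KRT5 fell by 0.17 in WT and 0.15 in KO at 12 h (adjusted p = 0.00135 and 0.00318), beside medians of -0.085 and -0.095 over all genes. With the libraries rescaled by median of ratios the changes were -0.08 and -0.04 and neither call held (adjusted p = 0.105 and 0.358). From 12 to 48 h KRT5 rose by 0.27 in WT and 0.27 in KO (adjusted p = 3.41e-05 and 2.91e-05). At 48 h it differed from untreated cells by 0.10 in WT (adjusted p = 0.0763) and 0.12 in KO (adjusted p = 0.0392), and the KO call was lost in 11 of the 25 alternative settings.

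KRT14, the type I partner of KRT5, was the steadiest of the 10 genes, with a 1.08-fold range between its lowest and highest group mean. It was at 6389.7, 6782 and 6840.5 RPKM in untreated WT, 6251, 6130.1 and 6349 at 12 h and 6365, 6590.0 and 6189 at 48 h. In KO it was at 6524, 6124 and 5934, then 5587, 6592 and 6317, then 6379.6, 6431 and 5940.3 RPKM. KO groups overlapped at all times, and in WT the 12 h libraries lay just below the untreated ones. Its difference at 12 h was -0.10 in WT (95% interval -0.21 to 0.02) and -0.01 in KO (-0.12 to 0.11), with adjusted p = 0.168 and 0.909. KRT14 passed the threshold in none of the 11 comparisons.

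The 3 suprabasal keratins did not move together. KRT13, a type I keratin, rose at 12 h from 55.5, 47.3 and 48.1 to 80.3, 67.4 and 79.1 RPKM in WT and from 64.1, 60.2 and 62.6 to 68.7, 87.4 and 94.0 in KO. The treated libraries all exceeded the untreated ones, and the log2 change was 0.58 for WT, 0.40 for KO (SE 0.0931, adjusted p = 0.000122 and 0.00206). At 48 h KRT13 was at 48.5, 49.3 and 47.8 in WT and 60.6, 60.7 and 57.3 in KO, overlapping the untreated values.

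KRT10, the type I keratin of differentiated epidermis, went the other way. It was at 12.8, 10.9 and 10.3 RPKM in untreated WT, 9.66, 9.09 and 8.79 at 12 h and 11.3, 11.8 and 11.7 at 48 h. In KO it was at 12.2, 12.5 and 10.7, then 9.76, 8.79 and 8.51, then 13.3, 12.5 and 14.2 RPKM. All 12 h libraries lay below all untreated and 48 h libraries of the same genotype. KRT10 fell by 0.27 in WT and 0.35 in KO at 12 h (adjusted p = 0.00936 and 0.00148) and rose by 0.31 and 0.51 from 12 to 48 h (adjusted p = 0.00599 and 8.62e-05). In WT the fall was -0.19 and not called after median-of-ratios scaling (adjusted p = 0.0551) or without untreated replicate 1 (0.0607), and in KO it was -0.26 after scaling and still called.

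KRT1, the type II partner of KRT10, was near the filter on low values, at 2.06, 1.03 and 1.34 RPKM in untreated WT and 0.980, 0.790 and 0.800 at 12 h. At 48 h it was at 1.16, 1.70 and 2.79 in WT, where the libraries were widely spread. In KO it was at 2.12, 1.80 and 1.38, then 1.19, 1.04 and 1.45, then 2.02, 1.59 and 1.94 RPKM. The difference at 12 h was -0.40 in WT (adjusted p = 0.0953) and -0.31 in KO (adjusted p = 0.186). KRT1 rose from 12 to 48 h in WT by 0.60 (adjusted p = 0.0196), a call lost in 4 of the 25 alternative settings, among them the fit without WT 48 h replicate 3.

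None of the 10 genes passed the test between SP100 KO and WT cells. At 0, 12 and 48 h, 0 of 10 passed the threshold in limma, where 4.89%, 3.62% and 4.19% of all genes did. Unadjusted p was below 0.05 for 4, 1 and 5 of the 10, and for 2400, 2256 and 2173 of the 13280 genes tested. The smallest adjusted p at these times was 0.0667, 0.261 and 0.107. Differences ran from -0.45 to 0.31 at 0 h, from -0.29 to 0.26 at 12 h and from -0.39 to 0.29 at 48 h, and the outermost limits of the 95% intervals were -0.80 and 0.57, -0.64 and 0.65, and -0.74 and 0.49. These limits do not show that the lines had equal levels.

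KRT15, KRT13 and KRT6B kept the same sign at all 3 times, none of them called. KRT15 was lower in KO by 0.45, 0.29 and 0.39 (adjusted p = 0.153, 0.395 and 0.245), with no overlap at 48 h only. KRT13 was higher in KO by 0.31, 0.13 and 0.29 (adjusted p = 0.0757, 0.523 and 0.107), with no overlap at 0 and 48 h. KRT6B was higher in KO by 0.26, 0.11 and 0.21 (adjusted p = 0.0667, 0.513 and 0.152), with no overlap at 0 h. KRT1 differed by 0.17, 0.26 and 0.02 (adjusted p = 0.694, 0.528 and 0.979), with no overlap at 12 h, the widest positive difference of the 10 at that time. Some of these differences passed in other settings: KRT6B at 0 h in a fit on these libraries alone (adjusted p = 0.0452) and without KO 12 h replicate 1 (0.0276) or 3 (0.0454), and KRT13 at 0 h without KO 12 h replicate 1 (0.0151) or WT 0 h replicate 1 (0.0484), and at 48 h in the fit alone (0.0211) or without KO 12 h replicate 1 (0.0233).

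**Figure D3:**
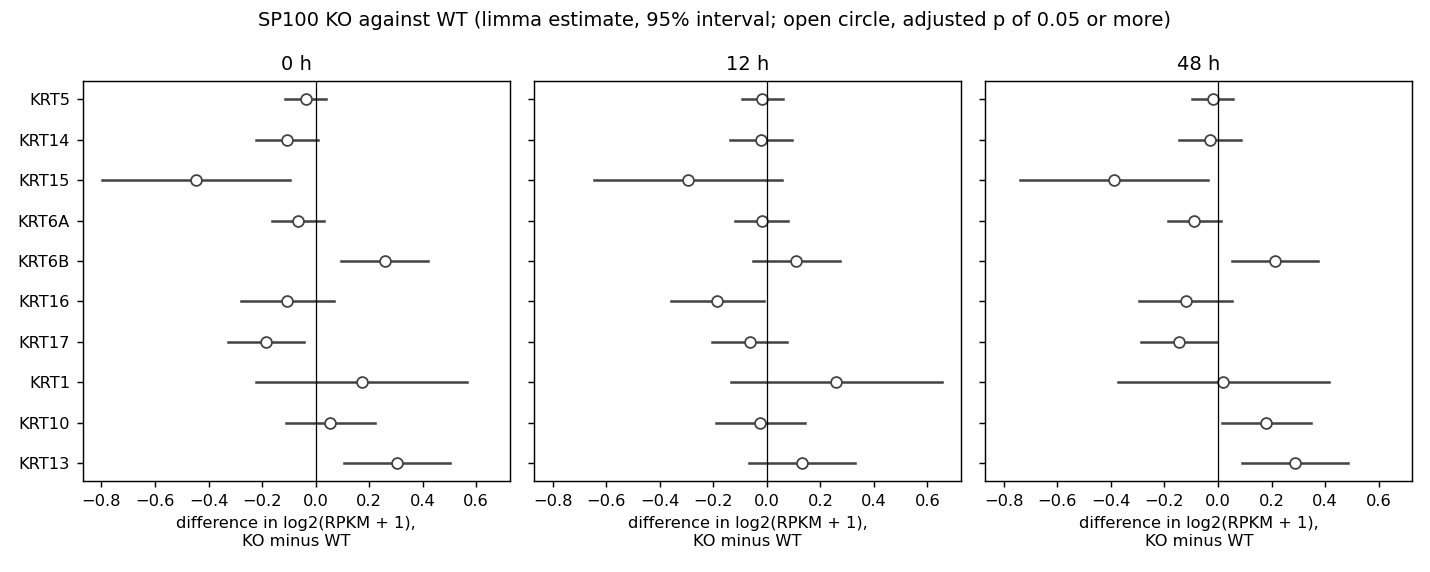
Difference in log2(RPKM + 1) between SP100 KO and WT cells at 0, 12 and 48 h for each keratin gene, with the limma 95% interval; open circles did not pass an adjusted p of 0.05. All circles are open, KRT15 lies left of 0 and KRT6B and KRT13 lie right of 0 at each time.

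The change with interferon did not differ detectably between the genotypes either. None of the 10 genes passed the test of the genotype by interferon interaction at 12 or 48 h. Of all genes, 0.0753% and 0.0828% passed. Unadjusted p was below 0.05 for 0 of the 10, and for 764 and 826 of the 13280 genes tested. Interaction estimates ran from -0.17 to 0.15 at 12 h and from -0.15 to 0.13 at 48 h. The widest 95% intervals reached from -0.47 to 0.65 and from -0.71 to 0.55.

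Ratios within a library of a type II keratin to a type I partner do not depend on how the library was scaled. KRT5 to KRT14 at 0, 12 and 48 h was 1.18 ± 0.0343, 1.12 ± 0.00536 and 1.32 ± 0.0193 in WT, and 1.24 ± 0.0386, 1.12 ± 0.0342 and 1.33 ± 0.0395 in KO (SD, n = 3). In each genotype the 3 times did not overlap, so the ratio was lowest at 12 h and highest at 48 h in every library. KRT6A to KRT16 was, in the same order, 39.8 ± 1.68, 53.2 ± 4.07 and 50.1 ± 2.87 in WT, and 41.1 ± 2.63, 59.8 ± 5.45 and 51.3 ± 2.04 in KO, higher than untreated without overlap at both times. KRT6B to KRT17 was 0.0447, 0.0424 and 0.0411 in untreated WT against 0.0530, 0.0619 and 0.0601 in untreated KO. It was 0.154, 0.147 and 0.149 against 0.167, 0.162 and 0.179 at 12 h, and 0.0884, 0.0752 and 0.0862 against 0.109, 0.106 and 0.105 at 48 h. KO exceeded WT without overlap at all 3 times, by 0.45, 0.17 and 0.36 on the log2 scale. Each of these separations had a two-sided p of 0.1 by exact permutation, which is the floor of this test with 3 libraries a group, and 0.164 after adjustment over the 36 ratio tests.

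The ratio of KRT1 to KRT10 in untreated cells was 0.128 ± 0.0333 for WT and 0.149 ± 0.0231 for KO, and it overlapped between untreated and treated cells at both times in each genotype. At 12 h it was 0.101, 0.0869 and 0.0910 in WT and 0.122, 0.118 and 0.170 in KO, without overlap, a difference of 0.54 on the log2 scale, and in WT the 48 h libraries lay above the 12 h ones by 0.71. Both separations are at the same floor (p = 0.1 by exact permutation, 0.164 adjusted). Both genes together were a trace of the keratin RNA. Summed over the 24 keratin genes, the 3 basal keratins held 71.1%, 57.8% and 67.6% of the RPKM in WT at 0, 12 and 48 h. The activated keratins held 25.9% ± 0.556, 39.2% ± 0.225 and 29.8% ± 1.03 in WT, and 25.8%, 39.1% and 28.9% in KO. All keratin genes together made up 3.01% ± 0.0711, 3.45% ± 0.0607 and 3.29% ± 0.0314 of the summed RPKM of the table at the same times in WT.

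**Figure D4:**
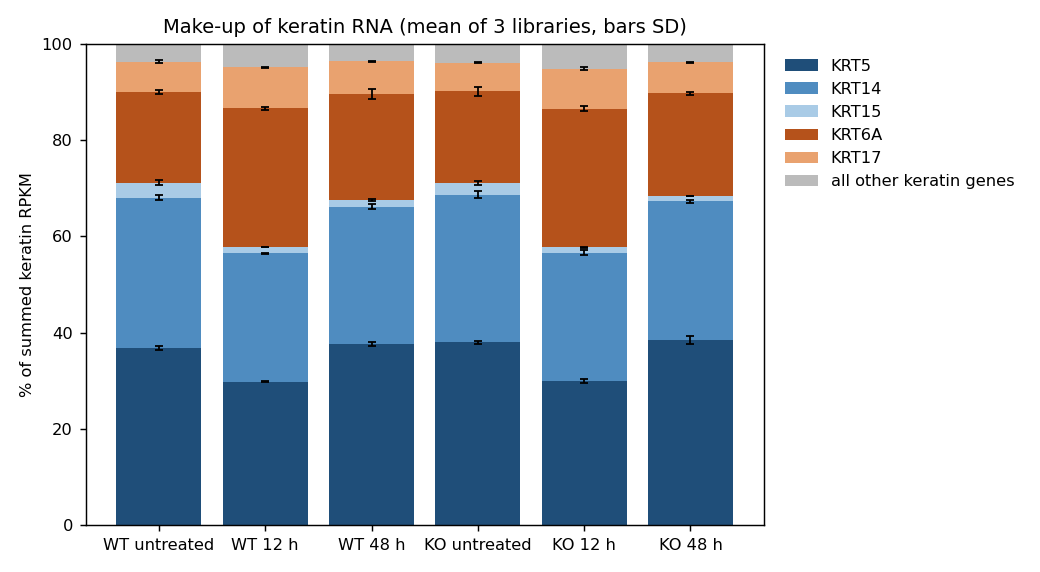
Share of the summed RPKM of the 24 keratin genes held by KRT5, KRT14, KRT15, KRT6A, KRT17 and all others, as means of 3 libraries with SD bars on the named genes. The basal genes in blue shrink from 71.1% to 57.8% at 12 h in WT as KRT6A and KRT17 in orange widen, and the KO bars follow the same course.

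Other keratin genes moved in both directions at 12 h. Of the 14 other keratin genes 9 were tested. KRT75 and KRT9 among them passed the filter only through treated libraries. A rise was thus favoured for them, and no count of changes at 12 h over the 9 is given. KRT6C and KRT8 rose in both genotypes, and KRT75 is described below. KRT4, KRT81 and KRT86 fell in KO, by 0.65, 0.48 and 0.46 (adjusted p = 0.000252, 0.0354 and 0.00234), the KRT81 call being lost in 5 of the alternative settings. Their WT differences were -0.27, 0.22 and -0.08, not called, and none of the 3 passed the interaction test. KRT75, a type II keratin of the hair follicle companion layer, was at 0.630, 0.540 and 0.610 RPKM in untreated WT and 7.22, 7.36 and 7.91 at 12 h, and at 0.270, 0.290 and 0.580 and 6.60, 6.40 and 7.76 in KO. No untreated library reached 1 RPKM, so KRT75 passed the filter only through its treated libraries, and its log2 differences are given as a description: 2.41 in WT and 2.52 in KO at 12 h, then 1.11 and 1.05 at 48 h. All of its 75-base coding stretches occurred in no other gene's transcript. KRT6C rose by 1.76 and 1.87, from a mean of 2.51 to 10.9 RPKM in WT, with the limit on its reads given above. KRT8, a keratin of simple epithelia, rose by 0.59 and 0.74, whereas KRT18, its type I partner, was not called at 12 h and fell at 48 h by 0.21 in WT and 0.18 in KO (the KO call was lost in 3 alternative settings).

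On chromosome 12 the genes KRT75, KRT6B, KRT6C, KRT6A and KRT5 follow each other in that order in the annotation. Their mean RPKM at 12 h was 12.6, 5.16, 4.35, 1.68 and 0.890 times the untreated mean in WT, and 18.2, 4.66, 4.69, 1.74 and 0.903 times in KO. The ratio fell from gene to gene along the 5 in WT, and in KO it was nearly the same in KRT6B and KRT6C. The order was noticed after the values were seen and was given no test, and it starts from KRT75, which entered through the filter by its treated libraries. On chromosome 17, KRT13 rose and its neighbour KRT15 fell.

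**Figure D5:**
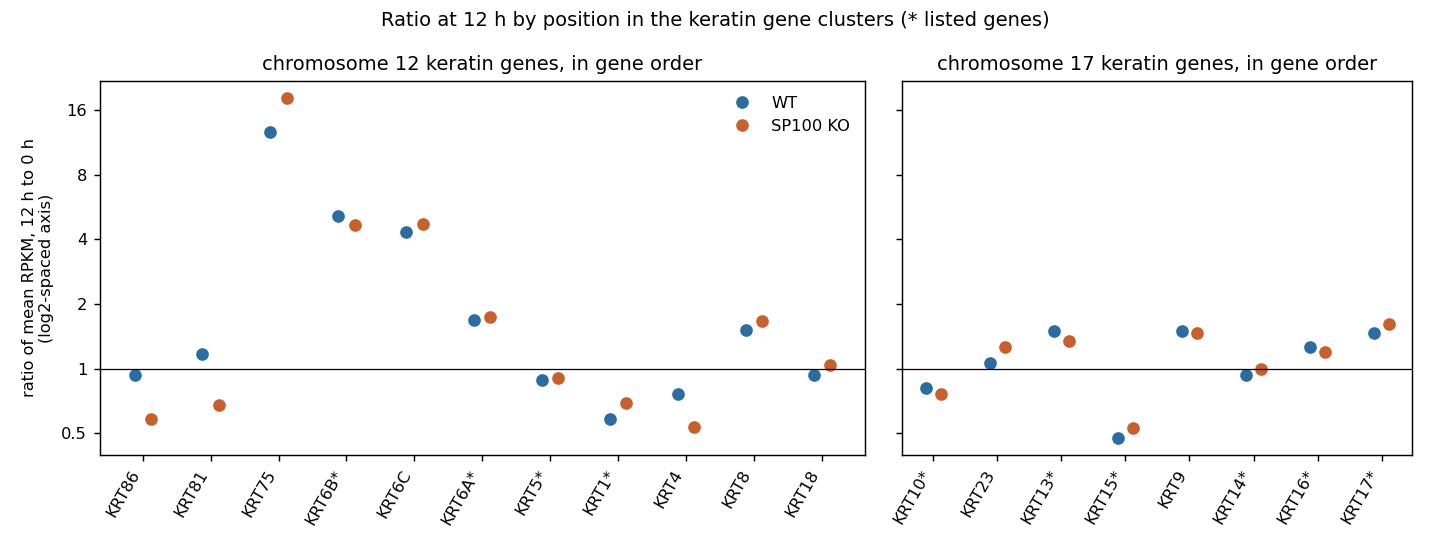
Ratio of mean RPKM at 12 h to untreated (log2-spaced axis) for the 19 keratin genes tested, in gene order on chromosomes 12 and 17, in WT (blue) and SP100 KO (orange), with the 10 listed genes starred. From KRT75 to KRT5 the ratio runs from 12.6 to 0.890 in WT, and the genes on chromosome 17 lie between 0.476 and 1.61.

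Between the genotypes, some of the other keratins were called. At 0 h 1 of the 9 was higher and 1 lower in KO, at 12 h 1 was higher and 2 lower, and at 48 h 1 was higher and 1 lower, beside 4.89%, 3.62% and 4.19% of all genes called. In a fit on the libraries of each comparison alone the calls numbered 0, 2 and 0. KRT4, a mucosal type II keratin, was higher in KO at 0 and 48 h by 0.47 and 0.48 (adjusted p = 0.0290 and 0.0259), and KRT23 was lower at 0 h by 0.52 (adjusted p = 0.0225), both at under 5 RPKM. KRT8 was higher at 12 h by 0.23 (adjusted p = 0.0124). KRT86, a hair keratin, was lower in KO by 0.76 at 12 h and 0.46 at 48 h (adjusted p = 0.000500 and 0.0214), and KRT81 was lower by 0.77 at 12 h (adjusted p = 0.0224). KRT81 and KRT86 overlap on opposite strands, and it is not given in the sources used here whether reads were counted by strand. Apart from KRT86 at 12 h, these genotype calls were each lost in 3 to 6 alternative settings, most of them the omission of a library. None of the 19 keratins tested passed the interaction test, where the smallest adjusted p was 0.752, for KRT81 at 12 h. At that time 4 of the 19 had an unadjusted p below 0.05, beside 764 of all 13280 genes tested.

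Several genes that anchor keratin filaments at desmosomes rose at 12 h, while periplakin fell. Of 14 filament linkers and desmosome genes 13 were tested, and 6 rose and 1 fell at 12 h in each genotype, with a median of 0.13 in each. Over all genes 44.9% changed in WT (15.1% higher, 29.8% lower) and 48.8% in KO (16% higher, 32.8% lower). The 7 called of 13 stand near the share called in either direction, but more of the 13 rose and fewer fell than over all genes. DSC2, a desmosomal cadherin, rose by 0.49 in WT and 0.50 in KO, PKP3, a plakophilin, by 0.43 and 0.48, JUP, plakoglobin, by 0.32 and 0.30, and DSP, desmoplakin, which ties keratin filaments to the plaque, by 0.29 and 0.31. PPL, periplakin, another plakin that binds keratin filaments, fell from 29.2, 24.8 and 27.4 to 12.4, 11.5 and 11.7 RPKM in WT and from 33.3, 28.6 and 32.1 to 14.2, 17.7 and 15.9 in KO, without overlap (log2 change -1.13 and -0.94, adjusted p = 1.42e-07 and 9.48e-07). In KO against WT, 3 of the 13 genes were higher at 0 h, 3 at 12 h and 4 at 48 h, and none was lower, beside 4.89%, 3.62% and 4.19% of all genes called in either direction. In a fit on the libraries of each comparison alone these counts were 0, 1 and 0. DSG3, a desmosomal cadherin of basal cells, was among them at all 3 times, by 0.29, 0.21 and 0.28 (adjusted p = 0.00293, 0.0337 and 0.00464), calls lost in 1, 8 and 1 of the alternative settings.

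RNAs of several genes of differentiating keratinocytes were also higher at 12 h. Of 10 suprabasal companions 7 were tested, and DSG1 and CALML5 among them passed the filter only through treated libraries, so their rise was favoured by it and no count over the 7 is given. IVL, the cornified envelope precursor involucrin, rose by 0.60 in WT and 0.44 in KO. TGM1, the transglutaminase that crosslinks the envelope, rose by 0.79 and 0.86 and was still higher at 48 h, by 0.63 and 0.75 (adjusted p = 0.000161 and 2.65e-05). SBSN, suprabasin, rose by 0.50 and 0.40. DSG1, the desmosomal cadherin of upper layers, was at 0.790, 0.640 and 0.940 RPKM in untreated WT and 1.47, 1.38 and 1.29 at 12 h, and at 0.870, 0.950 and 0.650 and 1.70, 2.08 and 1.67 in KO. KRTDAP, a gene of differentiating keratinocytes, was not called at 12 h. KRTDAP was at 21.4, 20.6 and 23.1 RPKM in WT and 40.1, 34.3 and 33.4 in KO at 48 h, without overlap. It was higher in KO by 0.70 (adjusted p = 0.00481), a call kept in every alternative, where 4.19% of all genes were called. Of the suprabasal keratins of the epidermis, KRT10 was called lower at 12 h in both genotypes, with the limit in WT given above, and KRT1 was not called.

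Among 16 regulators of keratin genes, 4 rose and 3 fell at 12 h in each genotype. The share called in either direction was near that of all genes. Over all genes 44.9% changed in WT (15.1% higher, 29.8% lower) and 48.8% in KO (16% higher, 32.8% lower). OVOL1, a zinc finger repressor of differentiating epidermis, rose from 1.88, 1.53 and 1.78 to 4.04, 3.51 and 3.96 RPKM in WT and from 1.43, 1.51 and 1.47 to 3.60, 3.58 and 3.40 in KO (0.83 and 0.87, adjusted p = 2.12e-06 and 9.14e-07). KLF5 rose by 0.46 and 0.82, and STAT3, a mediator of cytokine signals, by 0.21 and 0.24. HES1, a target of Notch, fell by 0.36 and 0.46, and NFE2L2, the oxidative stress factor NRF2, by 0.29 and 0.29. In KO against WT, 0 regulators were higher and 2 lower at 0 h, 2 higher and 1 lower at 12 h, and 1 higher and 1 lower at 48 h, beside 4.89%, 3.62% and 4.19% of all genes called. In a fit on the libraries of each comparison alone the calls numbered 1, 1 and 0. STAT3 at 0 h, GRHL2 at 12 h and NOTCH2 at 48 h lost their calls in 7, 7 and 4 of the alternative settings. GRHL3, higher in KO at 12 h by 0.52 to 0.635 over the alternative settings, lost its call in 2 of them. JAG1, a Notch ligand, was lower in KO at all 3 times, by 0.25, 0.18 and 0.19, calls lost in 0, 3 and 1 of the alternative settings.

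Within groups, several abundant keratins varied together from library to library. After the group mean was taken from each value, the deviations of KRT14 correlated with those of KRT17 at r = 0.938 and with those of KRT5 at r = 0.907, and KRT6A with KRT6B at r = 0.806, over 18 libraries. These pairs share libraries and their scaling, and KRT6A and KRT6B also share long identical coding stretches, so the values are a description. The part of reads that match both copies was not tested. Across all 18 libraries, the genes with the pattern most like that of KRT6B were CTSC (r = 0.996), NAPA and MYD88 (0.990 each). For KRT6A they were PSMC4 (0.986), CALR (0.984) and ISG20 (0.983), for KRT17 ATP6V0D1 (0.968), KRT6A (0.965) and CALR (0.962), and for KRT16 SPRR1B (0.932), ALDOA (0.903) and HOXC13 (0.890). For KRT15 they were RPL15 (0.955), AKR1B10 (0.941) and ALDH4A1 (0.939), for KRT5 PYGO2 (0.947), CCND2 (0.946) and HES1 (0.943), and for KRT14 IRF2BP2 (0.821), IDH3G (0.739) and ROGDI (0.739). For KRT13 they were SBSN (0.952), S100A16 (0.940) and DSC2 (0.927), for KRT10 C18orf32 (0.942), RHOT1 (0.936) and SNAPC5 (0.932), and for KRT1 DDI2 (0.885), RWDD4 (0.851) and TIMM9 (0.849). The 18 libraries hold only 6 conditions, so a gene that shares the order of the 3 times ranks high here, and KRT14, which barely changed, had the lowest likeness values.

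Promoter sequence was at hand for KRT5, KRT10 and KRT75, 3 of the 12 keratins looked up. The 250 bases before each start (RefSeq, GRCh38.p14) were searched on both strands for TATAAA, for the core of the interferon-stimulated response element (GAAA, any 2 bases, GAAA), for the AP-1 site TGANTCA and for the STAT site TTCNNNGAA. Of all 35116 promoters of this length, 10.7%, 3.02%, 6.57% and 6.57% hold these letters. KRT10 held TATAAA and the response element core, the latter on the opposite strand, while KRT5 and KRT75 held none of the 4. The promoters of KRT5 (chr12:52520395-52520644, minus strand) and KRT10 (chr17:40822615-40822864, minus strand) are shown for this difference in letters, with matches in capitals, and both genes were called lower at 12 h. A match of letters is not a binding site.
KRT5: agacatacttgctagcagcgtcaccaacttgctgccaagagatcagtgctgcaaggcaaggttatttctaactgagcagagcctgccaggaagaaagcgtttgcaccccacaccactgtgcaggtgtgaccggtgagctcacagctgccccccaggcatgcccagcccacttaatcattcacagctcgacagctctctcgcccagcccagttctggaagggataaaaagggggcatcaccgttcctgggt
KRT10: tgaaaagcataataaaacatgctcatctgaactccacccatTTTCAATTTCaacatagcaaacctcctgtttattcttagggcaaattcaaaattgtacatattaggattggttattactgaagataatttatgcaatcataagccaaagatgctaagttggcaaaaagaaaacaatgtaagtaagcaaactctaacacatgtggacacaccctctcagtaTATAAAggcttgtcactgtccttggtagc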

How the data were processed

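RNA was measured by stranded mRNA sequencing in 18 libraries, 3 per group. Per the submitters' processing notes, which give no role or order, the tools were cutadapt, STAR 2.6.1, RSEM 1.3.0 and limma 3.50.3, with build hg19; the annotation and the handling of reads that match several genes are not given in the sources used here. The authors deposited RPKM values for 16472 Ensembl gene IDs, 14576 of which were matched to a symbol. Read totals are unknown, so no counting interval is given.

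Values were analysed as log2(RPKM + 1), which understates changes of low genes, for 13280 genes, those reaching an RPKM of 1 in 3 or more libraries. A linear model with a mean for each group was fitted over the 18 libraries in limma 3.58.1 (R 4.3.3), its variances moderated towards a mean trend, with two-sided tests and Benjamini-Hochberg adjustment over all genes tested in each of 11 comparisons, at a threshold of 0.05. The model was tested on simulated data. P-values from limma set a difference against the spread between replicates, pooled over the 6 groups and moderated across genes. With 1 line per genotype, they do not cover the spread between lines. Genes were named by rule: keratin genes, SP100, members of the linker, regulator and companion lists past the threshold, and the 3 genes most correlated with each keratin among those averaging 5 RPKM or more. The keratins and lists were chosen with earlier results of these data known, and the sequence stretches, motifs and pseudogene after values were seen. The alternatives were a smaller pseudocount (0.1), no filter on low genes, only genes averaging 5 RPKM or more, rescaling by median of ratios, a separate fit per comparison, no variance trend, replicate number as a blocking term, and omission of single libraries. Sequences come from GENCODE 29 and RefSeq on GRCh38, not the authors' build.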

Additional observations from a re-analysis of the deposited data

How the results depend on the processing

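No called change of a keratin reversed in any of the 25 alternatives. The count of the 10 genes called for KO at 48 h against untreated fell from 5 to 3 in a separate fit per comparison, with no filter and with no variance trend, and ranged from 3 to 5 when libraries were left out in turn. The counts for KO against WT went from 0 to 1 at 0 h and from 0 to 1 at 48 h in the separate fit, and ranged from 0 to 2 and from 0 to 1 with a library left out. Values that were not called and changed sign were KRT14 in KO at 12 h, -0.009 as reported, 0.095 after scaling and -0.059 to 0.060 with a library left out, the KRT15 interaction at 12 h, -0.029 to 0.315 with a library left out, and the KRT1 interaction at 48 h, -0.342 to 0.064 with a library left out, the last turning without WT 48 h replicate 3. Over all single-gene values, 136 of 207 called changes kept their call in every alternative that gave a value.

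Same-numbered replicates did not deviate together across the genes tested (r from -0.097 to 0.157). The labels do not say whether they were cultured or prepared together, and these correlations cannot decide it. With the replicate number as a block the count for KO at 48 h against untreated was 3. The block moved no other count of keratins called by over 1.5 times.

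Over all genes, fits on the comparison's own libraries lowered the calls from 1770 to 945 for KO at 48 h against untreated, from 650 to 306, 481 to 213 and 556 to 250 for KO against WT at 0, 12 and 48 h, and from 10 to 6 and 11 to 3 for the interactions. Without KO 0 h replicate 1 the first was 1159, without WT 0 h replicate 2 the second was 390, and without WT 12 h replicate 1 the third was 311. Scaling by median of ratios moved the share of higher calls at 12 h (33.6% to 50.6% for WT, 32.7% to 50.2% for KO), between 12 and 48 h (68.5% to 47.4%, 66.4% to 48.0%) and for KO against WT at 0 h (57.7% to 46.1%). Depth is known only in relative terms, and KRT1 lies near the filter on low values.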
